A study of Mus musculus with 2 samples.

Results

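The genes described here encode 10 enzymes and partners that remove superoxide and peroxides: Sod1, Sod2, Sod3, Cat, Gpx1, Gpx3, Gpx4, Prdx3, Prdx5 and Txn2. They were found by gene name among the 55450 annotated genes that could be matched in the deposited tables, and all 10 were found. The samples are hearts of female B6CASTF1/J mice aged 18 to 20 months, a first-generation cross of the strains C57BL/6J and CAST/EiJ. Total RNA, 300 ng for each library, was sequenced in 2 libraries of 1 group, named replicates 2 and 1, with synthetic ERCC RNAs added. The labels list separate biosamples but a single donor entry for both libraries, so part of the spread between them may be technical. There was no treatment, other age, other sex or other strain, so levels and their spread are described and no condition is tested.

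Superoxide, a by-product of respiration and the product of NADPH oxidases, is turned into hydrogen peroxide by superoxide dismutases. Peroxide is then removed by catalase, by glutathione peroxidases that spend glutathione, and by peroxiredoxins that are reduced again by thioredoxins. Cardiomyocytes are rich in mitochondria, which make superoxide and hold their own dismutase, peroxiredoxins and thioredoxin.

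Expected counts, the estimated reads per gene, totalled 36926429 in replicate 2 and 35897521 in replicate 1. Mitochondrially encoded RNA took 32.6% of TPM in replicate 2 and 35.3% in replicate 1. TPM (relative transcript abundance) is a level corrected for transcript length and scaled over the whole library. The 8 cardiomyocyte markers were all present and summed to 40076 TPM in replicate 2 and 41942 in replicate 1. Markers of blood, fat and lymphocytes differed between the libraries, and their values are given below. In bulk tissue, fewer cells of a type and less RNA per cell cannot be told apart.

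The 10 genes together held 1887 TPM in replicate 2 and 1811 in replicate 1, or 1849 ± 53.8 TPM (SD, n = 2). This was 0.472% of the TPM of all nuclear protein-coding genes in replicate 2 and 0.438% in replicate 1. By the compartment in which each protein is known to work, the mitochondrial genes Sod2, Prdx5, Prdx3 and Txn2 came first. They held 51.5% of the 10-gene sum in replicate 2 and 54.1% in replicate 1 (mean 52.8% ± 1.85). The cytosolic genes Gpx4, Sod1 and Gpx1 held 35.1% ± 0.540, the secreted Gpx3 and Sod3 held 6.30% ± 1.13, and the peroxisomal Cat held 5.81% ± 0.181.

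These shares rest on gene totals and on where proteins with several forms are counted. Gpx4 and Prdx5 each make proteins for more than 1 compartment. With Gpx4 counted in the mitochondria, their share was 73.6%, and with Prdx5 counted in the cytosol it was 36.7%. When only annotated transcripts that hold the whole coding sequence were counted, the mitochondrial share was 36.0% in the RSEM-layout table and 33.5% in the kallisto-layout table, below the cytosolic share of 45.1% in the RSEM-layout table and 52.3% in the kallisto-layout table. This setting can count only transcripts that are annotated, and Sod2 has a single one with the whole coding sequence. The RSEM-layout tables and the kallisto-layout table are 2 estimates of the same libraries. Per the deposited readme, the first derive from alignments to transcripts and the second from the read files.

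**Figure D1:**
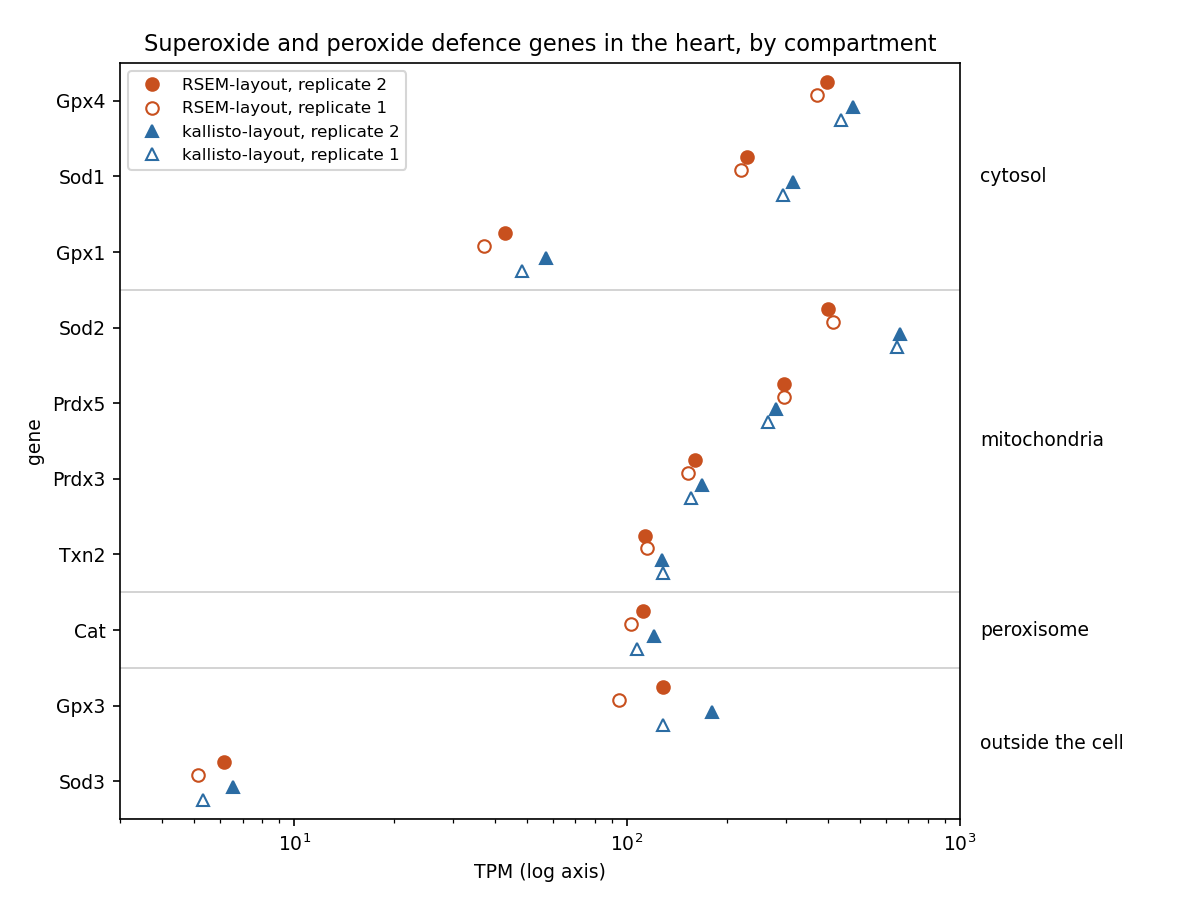
TPM of each gene on a log axis, by compartment, in replicate 2 (filled) and replicate 1 (open), from the RSEM-layout table (circles) and the kallisto-layout table (triangles). Sod2 and Gpx4 lie highest and Sod3 lowest in both tables, and the libraries lie furthest apart for Gpx3, at 127.85 TPM in replicate 2 and 94.49 in replicate 1.

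Of the 10 genes, 7 reached 100 TPM in both libraries, against 4.83% of the 11335 nuclear protein-coding genes with a mean of 1 TPM or more. Gpx3 passed that level in replicate 2 alone, Gpx1 lay below it, and Sod3 was far below. The median of the 10 genes was 144 TPM in replicate 2 and 134 in replicate 1, against 8.68 TPM in replicate 2 and 8.36 in replicate 1 for all those genes.

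The superoxide dismutases were led by Sod2, the manganese enzyme of the mitochondrial matrix (ENSMUSG00000006818, mm10 chromosome 17, 13006846 to 13040063, plus strand). It had 401 TPM in replicate 2 and 416 in replicate 1, a mean of 408 ± 10.3 TPM, and stood at rank 137 of the 11335 genes. Sod1, the copper-zinc enzyme of the cytosol (chromosome 16, 90220754 to 90226329, plus strand), had 229 TPM in replicate 2 and 220 in replicate 1. Sod3, the secreted copper-zinc enzyme of the extracellular matrix (chromosome 5, 52363791 to 52371418, plus strand), had 6.14 TPM in replicate 2 and 5.15 in replicate 1, at rank 7111.

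By gene totals Sod2 exceeded Sod1 by 1.82-fold in the RSEM-layout table and by 2.15-fold in the kallisto-layout table. The libraries did not overlap for this pair in either table. Sod1 exceeded Sod3 by 39.2-fold. The 3 dismutases together held 636 TPM in replicate 2 and 640 in replicate 1.

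The order of Sod2 and Sod1 turned round when transcripts without the whole coding sequence were left out. The annotated transcript with the most TPM of Sod2 was Sod2-207, a processed transcript of 1138 nt with no annotated coding sequence. It had 224 TPM in replicate 2 and 229 in replicate 1, or 55.5% ± 0.544 of the gene. Sod2-204, a transcript of 644 nt with a retained intron, held a further 27.4% ± 0.166 of the TPM but 8.85% of the expected counts. Sod2-201, the transcript with the whole coding sequence, had 64.3 TPM in replicate 2 and 70.6 in replicate 1, which was 16.5% ± 0.680 of the gene's TPM but 56.3% of its expected counts.

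TPM divides by length, and Sod2-201 has 5861 nt. Sod2-207 begins at base 13008184, the first base of the exon that is the second of Sod2-201, and so lacks the 23 coding bases of the exon before it, the start codon included. It covers 96.5% of the coding sequence and ends 445 nt after the stop codon, while Sod2-201 runs on for 4963 nt. Sod2-201 is the only annotated Sod2 transcript with the whole coding sequence, and none is annotated that joins it to the shorter end. Reads of such a transcript, if present, would be assigned to others, so the turned order of Sod2 and Sod1 depends on the annotation. How many reads this concerns was not tested. Of the 31-nt words of Sod2-207, 2.44% occur in no other annotated Sod2 transcript, so most of its reads could be assigned to several. The coding start of Sod2-201 is shown with the bases that Sod2-207 lacks in capitals, from the spliced transcript at chr17:13008046-13008220 of mm10, plus strand.
Sod2-201 coding start: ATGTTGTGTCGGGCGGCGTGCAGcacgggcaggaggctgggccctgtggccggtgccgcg

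In the kallisto-layout table Sod2-207 held 40.5% of Sod2 and Sod2-201 held 11.9%, at 76.2 TPM in replicate 2 and 79.6 in replicate 1. Sod2-205, an incomplete transcript of 451 nt at the start of the gene, was listed at 0 in the RSEM-layout table. In the kallisto-layout table it held 20.2% of the TPM but 2.59% of the estimated counts. With whole-coding transcripts alone, Sod2 was 0.301-fold of Sod1 in the RSEM-layout table and 0.257-fold in the kallisto-layout table. Transcripts of the type protein_coding held under 50% of the TPM of Sod2 and of none of the other 9 genes, against 7.25% of all nuclear protein-coding genes, and likewise in the kallisto-layout table, against 9.52%. Sod2 shares 26.6% of its 31-nt words with other genes, chiefly the lincRNA AC166110.4 and the protein-coding Rps6ka2. Of its 10012 words, 2801 occur only in Sod2-202, which held 0.229% of the TPM in the RSEM-layout table. Which Sod2 transcripts carry the shared words was not counted, so how far its reads could also fit those genes is not known.

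Sod1 and Sod3 were simple by comparison. Sod1-201 held 99.8% ± 0.0254 of Sod1, and Sod3 has a single annotated transcript. Sod1 overlaps Scaf4 on the other strand, which was at 8.28 TPM in replicate 2 and 8.45 in replicate 1. The processed pseudogene Gm8566 shares 213 of the 3989 words of Sod1, or 5.34%. Of these 3989 words, 3378 occur only in Sod1-202, a transcript with a retained intron that held 0.209% of the TPM. Sod1-201 has 611 words, and the part of them shared with Gm8566 was not counted. Gm8566 was listed at 0.87 TPM in replicate 2 and 0.42 in replicate 1.

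Among the glutathione peroxidases, Gpx4, which reduces lipid hydroperoxides inside membranes (chromosome 10, 80047166 to 80056439, plus strand), was the highest. It had 398 TPM in replicate 2 and 372 in replicate 1, a mean of 385 ± 18.2 TPM. Gpx3, the secreted enzyme of blood plasma (chromosome 11, 54902453 to 54910377, plus strand), had 128 TPM in replicate 2 and 94.5 in replicate 1. Gpx1, the cytosolic enzyme that is also found in mitochondria (chromosome 9, 108338903 to 108340343, plus strand), had 43.05 TPM in replicate 2 and 37.2 in replicate 1.

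Gpx4 exceeded Gpx1 by 9.59-fold and Gpx3 exceeded Gpx1 by 2.74-fold, in both cases by more than the libraries differed. In the kallisto-layout table Gpx4 exceeded Gpx1 by 8.69-fold and Gpx3 exceeded Gpx1 by 2.89-fold. Gpx1 was also below Cat, at 0.373-fold.

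All 3 are selenoproteins, in which an in-frame UGA codon is read as selenocysteine, the residue of the active site. The deposited annotation places this codon at position 47 of 201 in Gpx1, 73 of 226 in Gpx3 and 73 of 197 in Gpx4, counted from the start codon. Each coding sequence holds 1 such codon and ends at another stop codon, TAA in Gpx1 and Gpx3 and TAG in Gpx4. The surrounding 51 coding bases are shown because Gpx1 transcripts differ in whether their annotated coding sequence holds it, with the codon in capitals, from chr9:108339427-108339477, chr11:54907232-54908542 (across an intron) and chr10:80054713-80054763 of mm10, all on the plus strand.
Gpx1 UGA codon: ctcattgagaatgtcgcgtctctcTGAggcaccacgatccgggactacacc
Gpx3 UGA codon: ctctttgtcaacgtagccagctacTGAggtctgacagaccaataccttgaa
Gpx4 UGA codon: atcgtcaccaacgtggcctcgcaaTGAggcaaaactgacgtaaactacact

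Gpx1 was split between transcripts with and without this codon in their annotated coding sequence. Gpx1-204, whose annotated start codon is codon 57 of Gpx1-201 and so lies past the UGA, held 51.3% ± 0.148 of the TPM in the RSEM-layout table and 38.8% in the kallisto-layout table. Gpx1-201, with the whole coding sequence, held 46.3% ± 2.05 in the RSEM-layout table and 58.8% in the kallisto-layout table. The leading transcript of Gpx1 thus depended on the table, and 3.37% of the words of Gpx1-204 are found in no other Gpx1 transcript. The UGA lies within the exons of both.

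The forms of Gpx4 differ at the start. In Gpx4-202 the first start codon is known to give the mitochondrial form and the in-frame start at codon 28 the cytosolic form. Gpx4-201 begins in another exon, whose product is known from sperm nuclei. The coding starts are shown with these start codons in capitals, at chr10:80053632-80054534 (across an intron) for Gpx4-202 and chr10:80054049-80054108 for Gpx4-201, mm10, plus strand.
Gpx4-202 coding start: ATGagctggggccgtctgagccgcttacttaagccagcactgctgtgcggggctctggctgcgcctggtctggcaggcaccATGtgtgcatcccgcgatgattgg
Gpx4-201 coding start: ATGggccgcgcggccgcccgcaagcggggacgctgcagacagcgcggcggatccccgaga

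Gpx4-202 led in both tables. It had 213 TPM in replicate 2 and 222 in replicate 1 in the RSEM-layout table, or 56.5% ± 4.28 of the gene, and 96.4% in the kallisto-layout table. Since both start codons lie in Gpx4-202, its TPM does not divide the mitochondrial from the cytosolic form. Gpx4-201 held 0.988% ± 0.374 in the RSEM-layout table. In the kallisto-layout table it held 1.44% in replicate 2 and 5.39% in replicate 1.

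Gpx4-207, annotated to start at codon 41 of Gpx4-202, held 28.2% ± 0.817 in the RSEM-layout table, and Gpx4-203, with a retained intron, held 14.2% ± 3.002. Gpx4-203 has 280 nt and held 3.69% of the expected counts. Gpx4-207 and Gpx4-203 were at about 0 in the kallisto-layout table. Gpx4 is the gene of the 10 with the most sequence in common with another: 38.7% of its 31-nt words occur in the processed pseudogene Gpx4-ps2 (chromosome 10, 45875291 to 45876086, plus strand). That pseudogene was listed at 40.6 TPM in replicate 2 and 35.4 in replicate 1, but in the kallisto-layout table at 0.267 TPM in replicate 2 and 0.725 in replicate 1. With the pseudogene added, Gpx4 had 438 TPM in replicate 2 and 407 in replicate 1.

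Gpx3 was read from Gpx3-201 alone in the RSEM-layout table. In the other table Gpx3-201 held 77.0% and Gpx3-202, annotated without the end of its coding sequence, held 22.5%. All 3 annotated Gpx3 transcripts hold the UGA codon in their coding sequence. Of the other 5 glutathione peroxidases, Gpx8 of the endoplasmic reticulum had 16.4 TPM in replicate 2 and 14.1 in replicate 1. Gpx5 and Gpx6 were at 0 in both libraries, which allows up to 3 counts each. Gpx2, known from the gut, had 10 counts in replicate 2 and 0 in replicate 1.

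Of the peroxiredoxins of mitochondria, Prdx5 was above Prdx3, and Prdx3 was above thioredoxin 2 in the RSEM-layout table. Prdx5, a peroxiredoxin of mitochondria, peroxisomes and cytosol (chromosome 19, 6906697 to 6910106, minus strand), had 297 TPM in replicate 2 and 297 in replicate 1. Prdx3, known from mitochondria (chromosome 19, 60864051 to 60874556, minus strand), had 160 TPM in replicate 2 and 153 in replicate 1. Txn2, the mitochondrial thioredoxin that reduces both (chromosome 15, 77915047 to 77929006, minus strand), had 113 TPM in replicate 2 and 115 in replicate 1.

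Prdx3 has a single annotated transcript, and Txn2-201 held 94.8% ± 0.860 of Txn2, or 85.5% in the kallisto-layout table. In the RSEM-layout table the leading transcript held less of Prdx5 than of any other of the 10 genes, while in the kallisto-layout table this was so of Sod2. The transcripts of Prdx5 differ at the start, where the first start codon of Prdx5-201 is known to open the mitochondrial targeting sequence and an in-frame start at codon 49 to give the form without it. Both start codons stand in capitals in the coding start of Prdx5-201, given 5′ to 3′ on the minus strand of mm10 within chr19:6908108-6909617, across an intron.
Prdx5-201 coding start: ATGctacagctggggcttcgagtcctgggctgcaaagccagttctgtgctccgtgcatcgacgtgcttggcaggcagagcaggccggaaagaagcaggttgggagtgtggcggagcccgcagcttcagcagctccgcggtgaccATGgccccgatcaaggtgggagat

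In the RSEM-layout table Prdx5-205 led with 127 TPM in replicate 2 and 130 in replicate 1, or 43.4% ± 0.750 of the gene. It lacks the first 87 coding bases, with the first start codon among them, and 7 more further on, and its coding sequence is annotated as incomplete. Prdx5-204, which holds both starts but lacks 132 coding bases, followed with 25.3% ± 0.0958. Prdx5-203, which starts in another exon and lacks the first 159 coding bases and both starts, held 19.3% ± 0.872, and Prdx5-201 held 11.7% ± 0.398.

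The kallisto-layout table gave another picture. There Prdx5-205 and Prdx5-204 were listed at 0, Prdx5-203 held 50.8% and Prdx5-201 held 48.8%. Of the 31-nt words of each, 4.31% were found in Prdx5-205 alone, 5.31% in Prdx5-204 alone and 10.4% in Prdx5-201 alone. By gene totals Prdx5 exceeded Prdx3 by 1.90-fold in the RSEM-layout table and 1.68-fold in the kallisto-layout table. With whole-coding transcripts alone, it was 0.222-fold of Prdx3 in the RSEM-layout table and 0.822-fold in the kallisto-layout table. Prdx5 overlaps Trmt112 on the other strand, which had 15.3 TPM in replicate 2 and 13.7 in replicate 1.

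**Figure D2:**
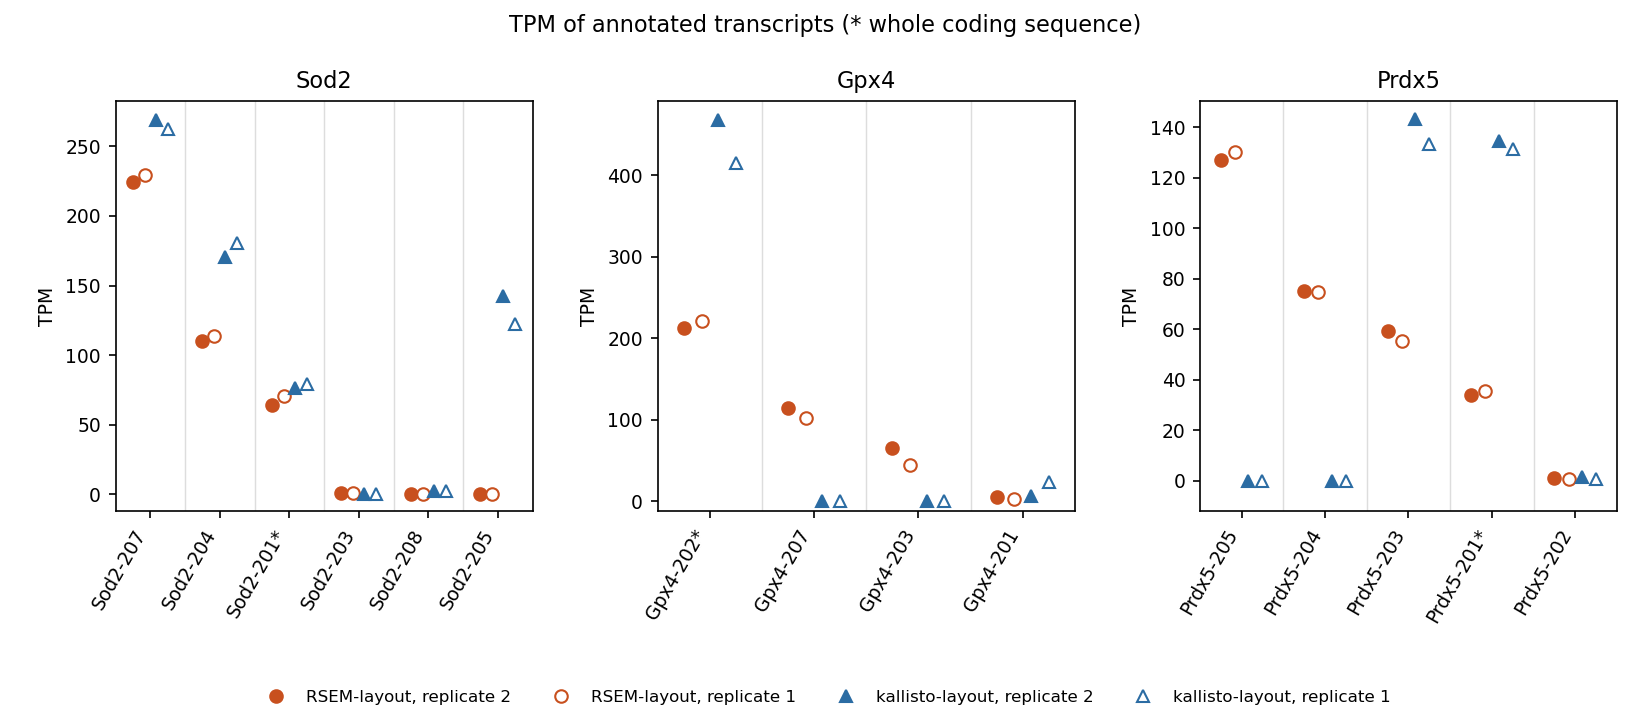
TPM of the annotated transcripts of Sod2, Gpx4 and Prdx5 that reached a mean of 1 TPM in either table, in replicate 2 (filled) and replicate 1 (open), from the RSEM-layout table (circles) and the kallisto-layout table (triangles). Gpx4-201 differs between the libraries in the kallisto-layout table, at 6.86 TPM in replicate 2 and 23.6 in replicate 1. Gpx4-207, Prdx5-205 and Prdx5-204 are at about 0 in the kallisto-layout table and Sod2-205 is at 0 in the RSEM-layout table.

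The cytosolic and secreted relatives give a scale for these levels. Prdx2 had 252 TPM in replicate 2 and 272 in replicate 1, and Prdx1 had 211 TPM in replicate 2 and 210 in replicate 1, both above Prdx3 and below Prdx5 in the RSEM-layout table. In the kallisto-layout table Prdx2, with 446 TPM in each library, was above Prdx5. Prdx2 is also abundant in red blood cells, whose 6 markers summed to 11151 TPM in replicate 2 and 23412 in replicate 1; their part in the level of Prdx2 was not tested. Prdx4 of the secretory pathway was lowest, with 10.3 TPM in replicate 2 and 10.1 in replicate 1. None of the other 4 peroxiredoxins was 1.5-fold or more apart between the libraries.

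Catalase, the haem enzyme of peroxisomes that splits hydrogen peroxide without a reductant (Cat, chromosome 2, 103453849 to 103485160, minus strand), had 112 TPM in replicate 2 and 103 in replicate 1. Prdx3 exceeded it by 1.46-fold. Cat-201, with the whole coding sequence, held 70.5% ± 0.920 of its TPM, and Cat-202, a short transcript that lacks 1053 of 1581 coding bases, held 29.5%. Cat-202 held 10.1% of the expected counts, and 2.67% of its 31-nt words are found in no other Cat transcript. In the kallisto-layout table Cat-201 held 75.4% and Cat-202 held 24.6%. None of the 31-nt words of Cat occurred on the same strand in another gene, as was also the case for Gpx1, Prdx3 and Prdx5. On the other strand, Trmt112 holds 16.9% of the words of Prdx5.

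**Figure D3:**
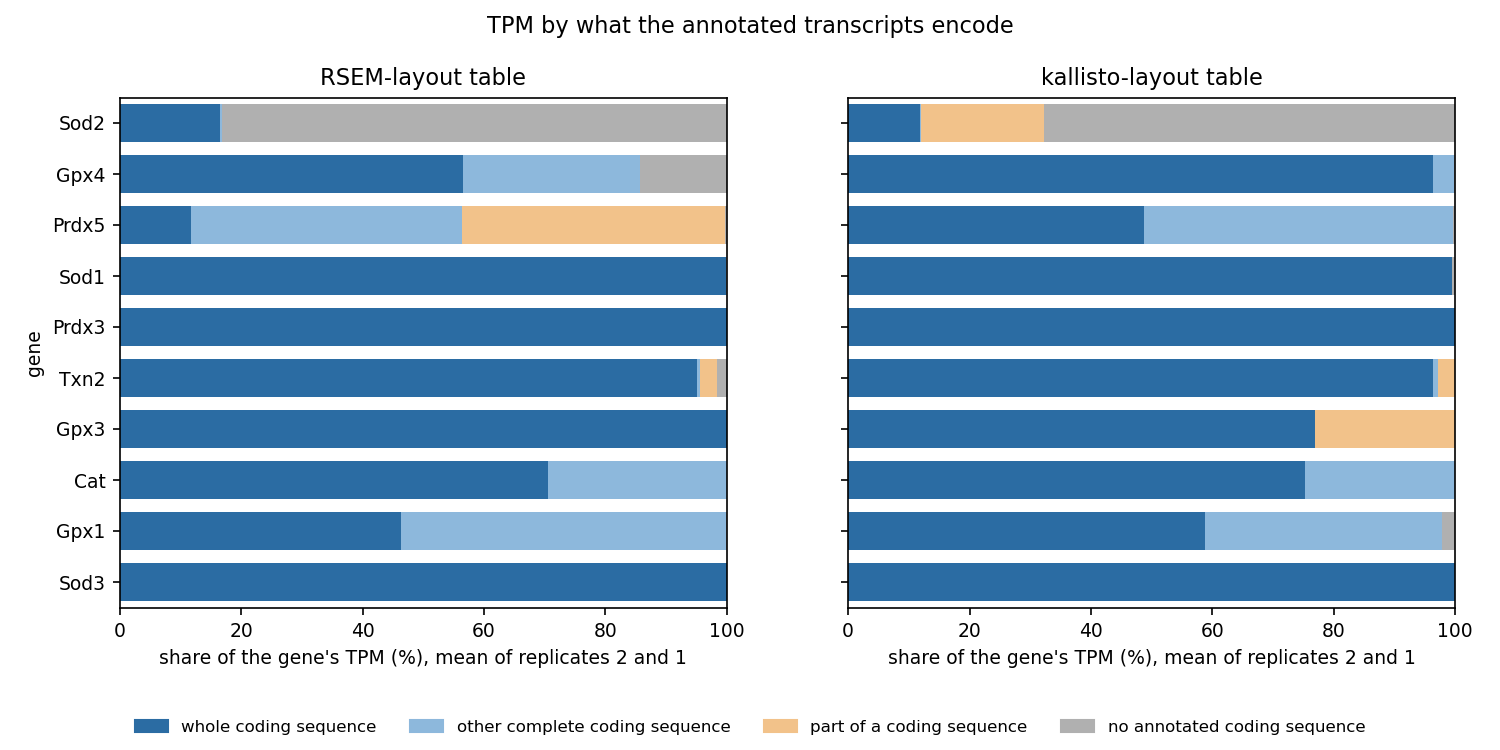
Share of each gene's TPM, as the mean of replicates 2 and 1, held by annotated transcripts with the whole coding sequence, with another complete coding sequence, with part of one or with none, in the RSEM-layout table (left) and the kallisto-layout table (right). Sod2 is the gene with most TPM on transcripts without an annotated coding sequence, 83.3% in the RSEM-layout table and 67.8% in the kallisto-layout table.

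Across the 10 genes the leading transcript differed between the tables for 2, Gpx1 and Prdx5, against 21.2% of all nuclear protein-coding genes. The leading transcript in the RSEM-layout table was not of type protein_coding for 1, Sod2, against 6.42%. Gene totals differed by 1.5-fold or more between the tables for 1 gene, again Sod2, against 10.5%. Its RSEM-layout total was 0.623-fold of its kallisto-layout total, where it had 662 TPM in replicate 2 and 648 in replicate 1. None of these 3 counts out of 10 stands far from the share over all genes.

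In the order of the RSEM-layout totals, Sod2, Gpx4, Prdx5, Sod1, Prdx3, Txn2, Gpx3, Cat, Gpx1 and Sod3, 6 of the 9 neighbouring pairs differed by more than the libraries did. A pair was taken as apart where its log2 ratio had the same sign in both libraries and a mean above the difference between them. Sod2 and Gpx4, Txn2 and Gpx3, and Gpx3 and Cat were not apart. The largest steps were those at the low end, 2.68-fold between Cat and Gpx1 and 7.01-fold between Gpx1 and Sod3.

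By the kallisto-layout totals, 6 of the 9 neighbouring pairs were apart as well, but not the same ones. Sod2 lay apart from Gpx4, by 1.43-fold, and Sod1, with 316 TPM in replicate 2 and 294 in replicate 1, lay above Prdx5, with 279 TPM in replicate 2 and 266 in replicate 1. Prdx3, Gpx3, Txn2 and Cat formed the run in which neighbours were not apart.

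Between the libraries the 10 genes were near each other. None of the 10 was 1.5-fold or more apart on the scale of log2(TPM + 0.1), while 9.22% of the nuclear protein-coding genes were. Low genes differ more often, and among genes at a mean of 10 TPM or more the share was 4.19%. In all, 8 of the 10 were higher in replicate 2 by some amount, against 53.8% of all genes, and Sod2 and Txn2 were lower. The count depended on the scaling and the table. Prdx5, among the 8, had a TPM ratio of 1.0004. With expected counts scaled by edgeR (TMM), the log2 ratio was -0.046 for Prdx5 and -0.017 for Gpx4. In the kallisto-layout table that of Sod2 was 0.032. The median log2 ratio of replicate 2 over replicate 1 was 0.084 for the 10 genes and 0.021 for all genes.

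**Figure D4:**
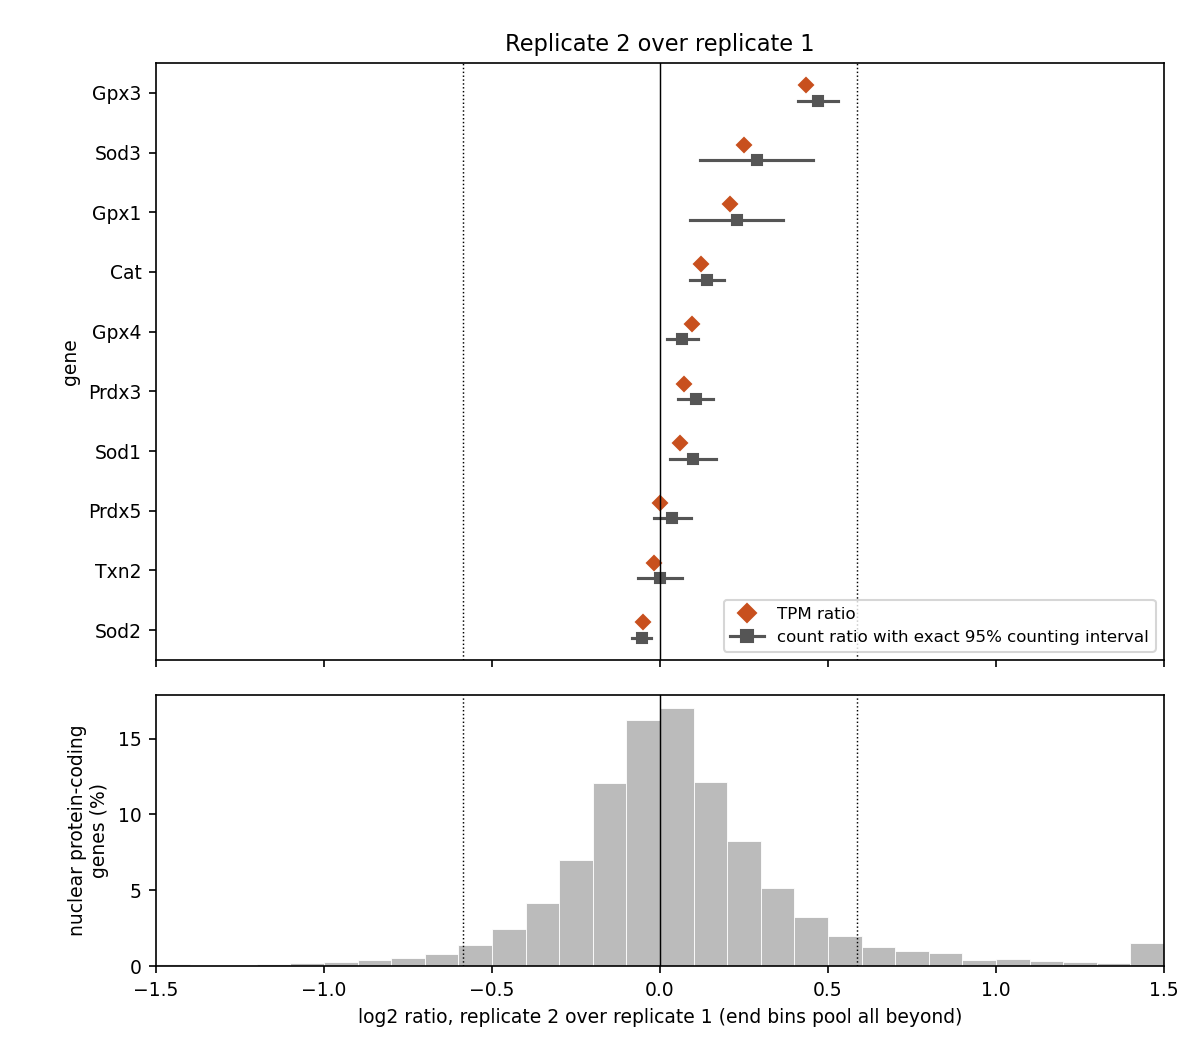
Top: log2 ratio of replicate 2 over replicate 1 for each gene, as the TPM ratio (diamonds) and as the ratio of expected counts per total with its exact 95% counting interval (squares and lines). Bottom: the same TPM ratio over 11335 nuclear protein-coding genes, in percent per bin; dotted lines mark 1.5-fold, which none of the 10 genes reaches.

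The credibility intervals that the authors deposited for TPM did not overlap between the libraries for 4 genes, Gpx3, Sod3, Cat and Prdx3. The share over all genes was 18.7%, but it was not matched for level. The median was 135.2 TPM for the defence enzymes and 8.585 TPM for all genes, so no excess is read from this comparison. The gap was narrow for Prdx3, from 152.877 TPM (upper bound, replicate 1) to 153.012 TPM (lower bound, replicate 2). For Cat it ran likewise from 104.783 to 105.199 TPM. Gpx3 differed most, with an interval of 122 to 129 TPM in replicate 2 and 89.6 to 95.4 TPM in replicate 1. For Sod3 the intervals were 5.56 to 6.47 TPM in replicate 2 and 4.61 to 5.47 TPM in replicate 1. Such intervals cover the error of counting and of assigning reads, not that between animals.

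By expected counts, scaled to the library totals, Gpx3 had 5624 in replicate 2 and 3944 in replicate 1, a ratio of 1.39 (exact 95% interval 1.33 to 1.44, counting error only). Sod3 had 657 in replicate 2 and 523 in replicate 1, a ratio of 1.22 (1.09 to 1.37). Gpx1 had 946 in replicate 2 and 785 in replicate 1, a ratio of 1.17 (1.06 to 1.29). The interval included 1 for Prdx5 (0.987 to 1.07) and for Txn2 (0.955 to 1.05), and lay below 1 for Sod2 (0.944 to 0.982).

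Markers of several other cells moved between the same libraries. The 8 adipocyte markers, all higher in replicate 2 and 6 of them by 1.5-fold or more, summed to 767 TPM in replicate 2 and 310 in replicate 1. The 8 lymphocyte markers, all higher in replicate 2 by 1.5-fold or more, summed to 117 TPM in replicate 2 and 7.68 in replicate 1. Igkc alone held 97.7 TPM of that sum in replicate 2 and 4.55 in replicate 1. The 7 fibroblast markers summed to 253 TPM in replicate 2 and 220 in replicate 1, and the 7 macrophage markers to 147 TPM in replicate 2 and 99.2 in replicate 1. Of the macrophage markers 6 were higher in replicate 2, but only 1 by 1.5-fold or more. This was Lyz2, which held 86.9 TPM of the sum in replicate 2 and 46.85 in replicate 1.

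The 7 endothelial markers summed to 228 TPM in replicate 2 and 255 in replicate 1, and the 7 markers of smooth muscle and pericytes to 202 TPM in replicate 2 and 223 in replicate 1. No list had a marker at 0 in either library. Gpx3, the gene of the 10 that differed most, is also known from fat tissue. The part of these cells in the differences of Gpx3, Sod3 and Gpx1 was not tested.

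Around the 10 genes, 9 lists with 59 other redox genes were read in the same way. The thioredoxin list has 6 genes, of which Txnip, a protein that binds thioredoxin, was higher and Srxn1, which repairs overoxidised peroxiredoxins, was lower by 1.5-fold or more in replicate 2, against 6.5% higher and 2.72% lower over all genes. Txnip had 206 TPM in replicate 2 and 91.7 in replicate 1. Srxn1 had 7.88 TPM in replicate 2 and 12.2 in replicate 1. In the kallisto-layout table it had 8.27 TPM in replicate 2 and 12.3 in replicate 1, a log2 ratio of -0.568, which falls short of 1.5-fold.

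NADPH, which pays for the reduction of glutathione and thioredoxin, comes in mitochondria from Idh2 and Nnt among others, and these were the highest of the 8 genes of NADPH supply. Idh2 had 851 TPM in replicate 2 and 882 in replicate 1. Nnt had 257 TPM in replicate 2 and 261 in replicate 1 in the RSEM-layout table, but 137 TPM in replicate 2 and 127 in replicate 1 in the kallisto-layout table. G6pdx, the entry of the pentose phosphate pathway in the cytosol, was lowest in the RSEM-layout table, with 4.11 TPM in replicate 2 and 2.85 in replicate 1. In the kallisto-layout table Me2 lay below it in replicate 2 and above it in replicate 1. None of the 8 was 1.5-fold or more apart.

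Of the 9 genes of glutathione synthesis, glutathione reduction and glutaredoxins, 8 reached 1 TPM in both libraries. The list's median was 14.4 TPM in replicate 2 and 14.6 in replicate 1. Slc7a11, the cystine transporter, was at 0.10 TPM in replicate 2 and 0.010 in replicate 1, on 13 counts and 2 counts. It is the only one of the 9 counted as 1.5-fold or more apart, against 9.22% of all genes. With a mean of 0.055 TPM it would not be among the genes behind that percentage. All 7 genes of selenoprotein synthesis and selenium transport were present, led by Selenop, the selenium carrier of plasma, with 157 TPM in replicate 2 and 131 in replicate 1. Of the 3 copper genes, Ccs, the chaperone that loads copper into Sod1, had 11.7 TPM in replicate 2 and 9.80 in replicate 1. No gene of these last 2 lists was 1.5-fold or more apart.

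The list of enzymes that make superoxide or peroxide, which does not hold the respiratory chain, has 10 genes, and their median was 3.91 TPM in replicate 2 and 1.36 in replicate 1. Of these, replicate 2 was higher by 1.5-fold or more for 6 and lower for none, against 6.5% and 2.72% of all genes. They were Cybb, Ncf1, Ncf4 and Rac2, subunits of the NADPH oxidase of phagocytes, Nox1, an oxidase known from the colon, and Xdh, xanthine dehydrogenase. Nox1 and Ncf4 had means under 1 TPM and would not be among the genes behind those percentages. Nox1 had only 5 counts in replicate 2 and 2 in replicate 1, and Ncf4 had 37 in replicate 2 and 16 in replicate 1.

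Xdh, the highest of the 6, had 64.3 TPM in replicate 2 and 33.1 in replicate 1. That was above Sod3 in both libraries and, in the RSEM-layout table, above Gpx1 in replicate 2. In the kallisto-layout table Xdh, with 52.2 TPM in replicate 2, was below Gpx1, with 56.9. Rac2 had 7.44 TPM in replicate 2 and 1.53 in replicate 1 in the RSEM-layout table. In the kallisto-layout table it had 2.95 TPM in replicate 2 and 0.897 in replicate 1. All 8 lymphocyte markers were also higher in replicate 2. Of the 7 macrophage markers, Lyz2 was 1.5-fold or more higher, with 86.9 TPM in replicate 2 and 46.85 in replicate 1, while Adgre1 was lower, with 2.28 TPM in replicate 2 and 3.17 in replicate 1. The part of such cells was not tested. After Xdh came Maob, a monoamine oxidase of mitochondria that forms peroxide, and Cyba, the membrane partner of several NADPH oxidases. Maob had 17.2 TPM in replicate 2 and 19.3 in replicate 1, and Cyba had 18.98 TPM in replicate 2 and 17.4 in replicate 1, so that their order differed between the libraries.

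The NRF2 pathway is the transcription factor route that induces many antioxidant genes. Of its 7 listed genes, 1 was 1.5-fold or more higher in replicate 2, against 6.5% of all genes. This was Hmox1, the inducible haem oxygenase. It had 6.79 TPM in replicate 2 and 3.26 in replicate 1. Nfe2l2, which encodes NRF2 itself, had 24.0 TPM in replicate 2 and 24.6 in replicate 1, and Nqo1, a target, had 23.9 TPM in replicate 2 and 23.6 in replicate 1.

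**Figure D5:**
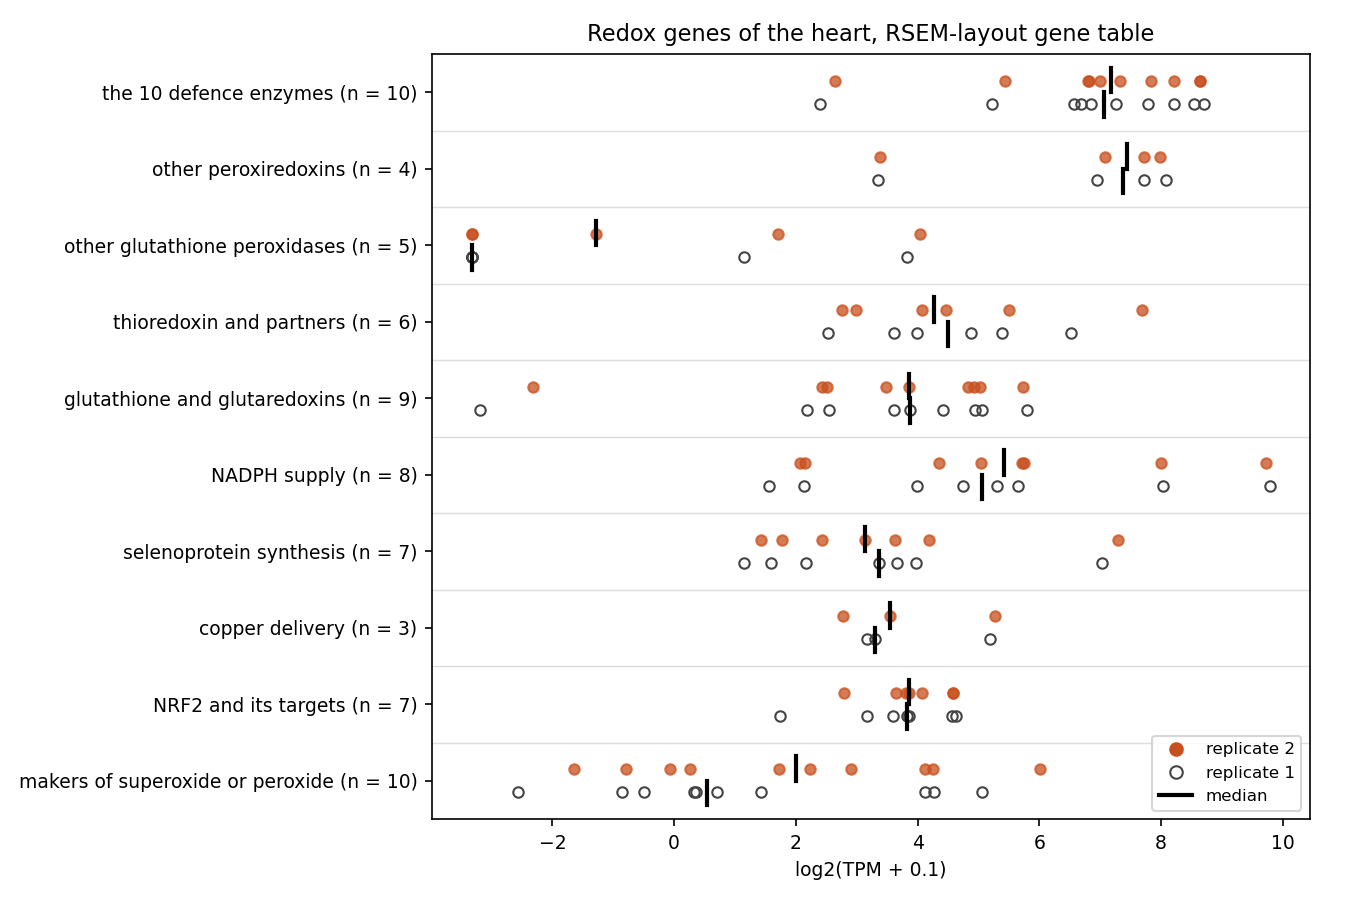
Each point is a gene on the scale of log2(TPM + 0.1) in the RSEM-layout gene table, in replicate 2 (filled, upper) and replicate 1 (open, lower); black bars are medians of each list. The median of the 10 defence enzymes lies at 144 TPM in replicate 2 and 134 in replicate 1, and that of the 10 genes that make superoxide or peroxide at 3.91 TPM in replicate 2 and 1.36 in replicate 1.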

How the data were processed

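The 10 genes and the gene lists were chosen with earlier results of these data known. Per the deposited readme, all tables refer to mm10 and GENCODE M21; the programs and their versions are not given in the sources here. The expected counts deposited by the authors in the RSEM-layout tables, and those estimated for the kallisto-layout table, split a read that fits several transcripts among them. TPM was deposited by the authors as a maximum likelihood value and a posterior mean, scaled over all rows; the credibility bounds, per the file headers, belong to the posterior value, so the first can lie outside them. FPKM and the isoform percent (the part of a gene's TPM that 1 transcript holds) were also deposited by the authors.

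TPM of the RSEM-layout gene table was the main unit; kallisto-layout transcripts were summed per gene. Ratios used log2(TPM + 0.1), which understates changes of low genes. Genes at a mean of 1 TPM or more were the background. With 1 group no test was made. Whole-coding transcripts have an annotated coding sequence and cover all of the coding sequence of the transcript that the annotation marks as principal (APPRIS). Intervals of count ratios are exact binomial (Clopper-Pearson, 95%) and cover counting error only. All 127 list symbols used were matched; some genes first put in the list of enzymes that make superoxide or peroxide are not reported here and entered no count or median. By rule all 10 genes were named, and of each list the highest 2, the lowest and those 1.5-fold or more apart could be named, of which not all were; others named for their role in the pathway were chosen after their values were seen. Library scaling was varied with edgeR 4.0.16 (TMM) and DESeq2 1.42.0 (size factors) on rounded expected counts; Python 3.11.15 and scipy 1.17.1 did the rest, and the ratio calls were tested on simulated data.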

Additional observations from a re-analysis of the deposited data

How the results depend on the processing

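The summed level of the 10 genes, 1849 TPM, ranged from 1811 to 1887 over the single libraries and was 2307 in the kallisto-layout table, 4551 when TPM was rescaled over nuclear protein-coding genes and 1456 in FPKM. Chosen after seeing the data, counting transcripts of type protein_coding alone gave 1449, and whole-coding transcripts 1019, or 1482 in the kallisto-layout table. The mitochondrial share was 51.5% to 54.1% over single libraries, 43.6% with protein_coding transcripts, 36.0% and 33.5% with whole-coding transcripts (RSEM-layout and kallisto-layout), 73.6% with Gpx4 and 36.7% without Prdx5. The cytosolic share was 34.7% to 35.5% over single libraries, 40.9%, 45.1% and 52.3% in the same transcript settings, 14.3% without Gpx4, 51.2% with Prdx5 and 36.4% with Gpx4-ps2 added to Gpx4. The peroxisomal share was 5.68% to 5.94% over single libraries, 4.93% in the kallisto-layout table, and 7.41% and 7.43% with protein_coding and whole-coding transcripts. The share outside the cell was 5.50% to 7.10%, and 8.04%, 11.4% and 8.36% in the transcript settings.

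None of the 10 genes was 1.5-fold or more apart between the libraries in any of the 12 settings tried, while the share over all genes ran from 6.09% with a pseudocount of 1 to 11.4% in the kallisto-layout table, and was 13.3% without a filter and 4.19% at 10 TPM or more. The median log2 ratio was 0.019 after TMM scaling, beside -0.027 for all genes. In the kallisto-layout table the leading transcripts held 99.5% for Sod1-201, 38.8% for Gpx1-204, 96.4% for Gpx4-202, 40.5% for Sod2-207, 0% for Prdx5-205, 85.5% for Txn2-201, 75.4% for Cat-201 and 77.0% for Gpx3-201; the cause was not tested. No paired analysis was possible because there is 1 group. Depth bore most on Sod3, which had the fewest counts of the 10 genes, 657 in replicate 2 and 523 in replicate 1.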

Other observations

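The thioredoxin systems of mitochondria and cytosol stood in opposite orders at the thioredoxin and at the reductase. Txn2, the mitochondrial thioredoxin, exceeded the cytosolic Txn1 by 2.62-fold, and by 2.57-fold in the kallisto-layout table, where the difference was larger than that between the libraries in both tables. Txn1 had 45.0 TPM in replicate 2 and 41.8 in replicate 1. Txnrd2, the mitochondrial thioredoxin reductase, had 16.7 TPM in replicate 2 and 15.8 in replicate 1, while Txnrd1, its cytosolic relative, had 21.9 TPM in replicate 2 and 29.2 in replicate 1. Txnrd2 was 0.642-fold of Txnrd1 in the RSEM-layout table and 0.782-fold in the kallisto-layout table, where the libraries differed by more than the pair.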
